A study of Mus musculus with 4 samples.

Results

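The rows described here are NONCODE long noncoding RNA entries that lie on the same strand as an annotated gene. A row was taken where its identifier came from NONCODE, it lay on chromosomes 1 to 19, its mean over the 4 libraries was at least 1 FPKM, and its span overlapped an Ensembl gene row on the same strand by 1 bp or more. FPKM count fragments relative to the length of a feature and the depth of its library. The rule took 6144 rows, which were 52.6% of the 11681 autosomal noncoding rows at 1 FPKM or more and belonged to a table of 62046 rows. A further 5000 rows met the rule on position but stayed under 1 FPKM. The members were thus selected on their own mean level over the 4 libraries, and levels are given below as descriptions.

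The libraries came from bone marrow cells of GM1082 knockout mice (GM1082-/-, KO, 2 libraries) and wild-type mice (WT, 2 libraries). Cells of both genotypes were kept with M-CSF, the cytokine that drives marrow progenitors towards macrophages, for 5 days, and total RNA was sequenced. The labels give no strain, sex, age or allele, and leave it unsaid whether replicates stem from different animals. The p-values below therefore reflect the spread of these 4 libraries alone, and that spread may be technical. The macrophage genes Csf1r and Adgre1 stood at 104 and 113 FPKM and at 139 and 158 FPKM in KO replicates 1 and 2, against 121 and 117 FPKM and 147 and 152 FPKM in WT replicates 1 and 2. S100a8, abundant in neutrophils and monocytes, was at 8738 and 8480 FPKM in KO and 7842 and 7586 FPKM in WT. The row whose RefSeq name has Gm1082 as a synonym, NONMMUG078287.1, read 0.0639 and 0.0624 FPKM in KO and 0.0792 and 0.0198 FPKM in WT, too low to check the genotype.

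Noncoding transcripts that share a strand with a gene include RNAs with promoters of their own, alternative products of the gene, and hosts of microRNAs. A primary transcript is made with its introns, which are spliced out later, and total RNA holds both kinds of molecule. Fragments inside an intron can therefore come from the unspliced RNA of the gene or from a separate RNA over the same bases. With no exon annotation and no statement of how strand or shared reads were handled, these sources cannot be told apart here, and the values of overlapping rows are uncertain for the same reason.

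Some rows began where their gene began. Of the 6144 rows, 206 had their 5′ end within 50 bp of a RefSeq gene start, and for 178 of them it was the start of the overlapped gene itself. The 6 with the highest level are shown because row and gene share these promoter bases; they were chosen after their values were seen. Each line holds 250 bases before and 50 bases after the RefSeq start, on the strand of the gene, from RefSeq GRCm38.p6, and capitals mark the bases that belong to the noncoding row.
Zfp36l1: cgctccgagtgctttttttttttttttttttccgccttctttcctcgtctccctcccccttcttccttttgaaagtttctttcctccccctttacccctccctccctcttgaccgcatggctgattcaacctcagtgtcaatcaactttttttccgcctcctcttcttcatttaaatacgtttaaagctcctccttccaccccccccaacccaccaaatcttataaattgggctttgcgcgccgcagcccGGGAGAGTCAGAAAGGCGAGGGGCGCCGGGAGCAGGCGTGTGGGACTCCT
Cyb561a3: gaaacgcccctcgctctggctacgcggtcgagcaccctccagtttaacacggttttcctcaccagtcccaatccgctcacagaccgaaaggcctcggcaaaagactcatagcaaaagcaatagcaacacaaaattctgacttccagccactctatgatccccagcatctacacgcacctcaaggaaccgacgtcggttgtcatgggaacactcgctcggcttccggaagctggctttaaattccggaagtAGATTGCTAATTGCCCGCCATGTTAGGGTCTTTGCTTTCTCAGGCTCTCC
Cd274: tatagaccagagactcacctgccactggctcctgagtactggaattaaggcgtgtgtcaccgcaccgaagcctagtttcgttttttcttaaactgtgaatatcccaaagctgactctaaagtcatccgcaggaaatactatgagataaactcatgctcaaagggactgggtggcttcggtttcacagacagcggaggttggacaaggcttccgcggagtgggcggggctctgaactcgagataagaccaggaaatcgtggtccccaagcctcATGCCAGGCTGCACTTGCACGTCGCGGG
Myh9: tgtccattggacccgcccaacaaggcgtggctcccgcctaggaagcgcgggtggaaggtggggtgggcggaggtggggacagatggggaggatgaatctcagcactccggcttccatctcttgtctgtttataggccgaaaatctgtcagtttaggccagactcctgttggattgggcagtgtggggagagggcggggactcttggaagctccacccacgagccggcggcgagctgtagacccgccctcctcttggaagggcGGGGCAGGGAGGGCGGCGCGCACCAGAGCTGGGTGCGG
Anxa1: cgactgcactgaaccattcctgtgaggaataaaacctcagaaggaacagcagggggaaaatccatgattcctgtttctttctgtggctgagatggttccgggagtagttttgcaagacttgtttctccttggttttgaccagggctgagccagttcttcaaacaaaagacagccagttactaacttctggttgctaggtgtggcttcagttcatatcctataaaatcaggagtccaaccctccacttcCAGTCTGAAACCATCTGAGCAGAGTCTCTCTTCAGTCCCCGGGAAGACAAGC
Ifngr2: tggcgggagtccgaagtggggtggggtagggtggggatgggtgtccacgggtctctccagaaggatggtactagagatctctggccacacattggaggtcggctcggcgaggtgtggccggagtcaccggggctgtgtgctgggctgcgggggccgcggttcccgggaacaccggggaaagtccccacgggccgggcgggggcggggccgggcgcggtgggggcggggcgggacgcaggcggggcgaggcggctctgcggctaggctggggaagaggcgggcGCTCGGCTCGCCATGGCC

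The Zfp36l1 and Cyb561a3 rows began at the RefSeq start itself. The Anxa1 row began 2 bp before it, and the Myh9, Cd274 and Ifngr2 rows 12, 22 and 32 bp after it. The windows are chr12:80112964-80113263 (minus strand) for Zfp36l1, chr19:10576907-10577206 (plus) for Cyb561a3 and chr19:29367188-29367487 (plus) for Cd274. Those of the others are chr15:77842126-77842425 (minus) for Myh9, chr19:20390622-20390921 (minus) for Anxa1 and chr16:91546809-91547108 (plus) for Ifngr2. The letters of 4 short motifs were searched on both strands of the windows at the starts of all 206 rows and of 32851 RefSeq gene starts. The GC box letters CCGCCC were in 62.1% of the rows' windows and 35.7% of all windows, TATAAA in 10.7% and 13.6%, the AP-1 letters TGACTCA in 6.80% and 5.20%, and the PU.1 letters GAGGAAGT in 3.40% and 3.20%. The windows of all gene starts include genes that these cells do not express, so the shares describe different sets of genes.

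Rows over microRNA genes form another group with known sequence. Among the members, 20 rows held 25 microRNA hairpins, which give 42 mature sequences with 36 different seeds (bases 2 to 8). The mature sequences below, from RefSeq GRCm38.p6, are those of broadly studied families and of 3 of the highest such rows, with the seed in capitals.
let-7a-5p: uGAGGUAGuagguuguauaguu
let-7d-5p: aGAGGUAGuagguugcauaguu
let-7f-5p: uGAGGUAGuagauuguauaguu
let-7i-5p: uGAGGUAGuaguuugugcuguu
miR-16-5p: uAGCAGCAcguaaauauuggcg
miR-29b-3p: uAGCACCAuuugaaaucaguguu
miR-29c-3p: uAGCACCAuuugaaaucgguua
miR-181a-5p: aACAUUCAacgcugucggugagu
miR-181b-5p: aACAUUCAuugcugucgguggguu
miR-22-3p: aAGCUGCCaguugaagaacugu
miR-423-5p: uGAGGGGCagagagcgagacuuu
miR-8104: cAGGAUGAgguggagugcagcg
miR-7227-5p: uCUGAUGAcuuuuucauuga
miR-1898: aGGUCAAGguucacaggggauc

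The let-7 sequences came from 2 rows and share the seed GAGGUAG. The sequences of miR-29b and miR-29c, held by 1 row, share AGCACCA, and those of miR-181a and miR-181b, also on 1 row, share ACAUUCA. The values of a row are those of the long transcript region and not of the mature microRNA, which such libraries do not measure.

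Most rows lay wholly within a gene. Inside the gene's span were 5729 of the 6144 rows (93.2%), while 311 overlapped it in part, 72 spanned it whole and 32 had nearly the same ends (an overlap of at least 90% of both spans). They lay on 3075 genes, of which RefSeq lists 2932 as protein coding and 43 as lncRNA, and chromosomes held between 214 rows (chromosome 18) and 579 rows (chromosome 2). Only 1 row overlapped 1830 of the genes, and 41 genes carried 10 or more rows, 612 rows in all. The median span of a row was 2212 bp. Of 6054 rows whose gene was found in RefSeq by Entrez number, 5854 overlapped the RefSeq span too, and 200 lay outside it, so for these the overlap rests on the longer span in the deposited table.

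Along the gene, rows were most frequent near its 5′ end. The midpoints of 749 rows inside genes fell in the first 10% of the gene's span, of 742 in the next 10% and of 295 in the last 10%. The ratio of the row's FPKM to that of the gene had a median of 0.298 in the first segment and 0.238 in the last, a smaller difference than the spread between quartiles within any segment.

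**Figure D1:**
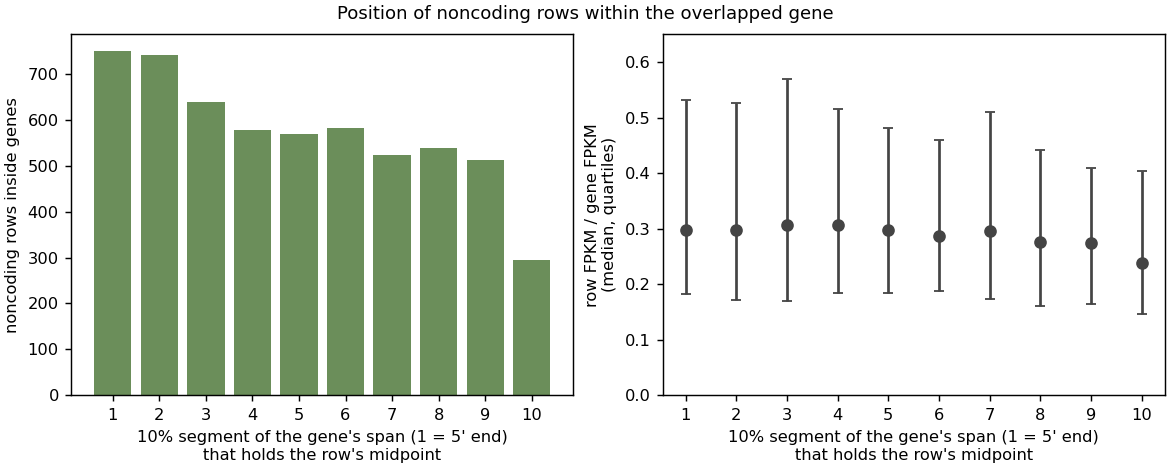
Left, number of noncoding rows inside genes by the 10% segment of the gene's span that holds the row's midpoint, counted from the 5′ end. Right, median ratio of row FPKM to gene FPKM in each segment, with bars from the lower to the upper quartile. Counts run from 749 in the first segment to 295 in the last, while medians stay between 0.238 and 0.306.

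The depositors' values let fragments be counted for most of these rows. FPKM multiplied by span is a whole multiple of 1 step where a feature is counted over 1 unbroken block. At that step, 1 FPKM over 1 kb stood for 17.72 and 18.15 fragments in KO replicates 1 and 2 and for 19.07 and 19.08 fragments in WT replicates 1 and 2. In 5003 of the 6144 rows (81.4%) all 4 values were within 0.05 of whole fragments over the row's own span, as for a row with no intron removed. This held for 84.8% of the rows inside genes, 46.9% of those overlapping in part and none of the rows that spanned a gene or had its ends. The share was 22.9% of 3242 noncoding rows that overlap genes on the opposite strand only, and 67.8% of 2295 that overlap no gene row. The 5003 rows had a median of 98 and 108 fragments in KO replicates 1 and 2, against 114 in each WT library. KO replicates differed beyond counting error, at the 95% level, in 23.8% of these rows, and WT replicates in 22.3%, where counting alone gives 5%. The members as a whole held 8.14% and 8.6% of summed FPKM in KO replicates 1 and 2, against 8.97% and 8.66% in WT replicates 1 and 2.

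Rows were mostly lower than their gene. Median level was 2.98 FPKM, with 1 row in 10 under 1.3 and 1 in 10 above 8.87 FPKM. The filter was set on this level: NONMMUG025610.2 in Zfp64 (1.16 and 1.27 FPKM in KO, 0.817 and 0.751 FPKM in WT) and NONMMUG005043.2 in Nabp2 (0.859 and 1.05, against 0.865 and 1.23) lay just inside it. Just outside lay NONMMUG003367.2 in Dse (0.533 and 1.27 FPKM in KO, 1.05 and 1.14 FPKM in WT) and NONMMUG025239.2 in Uqcc1 (1.22 and 0.904, against 0.86 and 1.02). For the 5902 rows on a gene at 1 FPKM or more, the median ratio of row to gene was 0.288, and 1 row in 10 fell under 0.103 and 1 in 10 above 0.862. The median was 0.279 and 0.292 in KO replicates 1 and 2, against 0.292 and 0.289 in WT replicates 1 and 2. In every library 5282 rows (89.5%) were below their gene and 284 (4.81%) above it.

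The ratio moved with the gene's level. Its median was 0.674 for genes at 1 to 5 FPKM, 0.278 at 5 to 20 FPKM, 0.176 at 20 to 100 FPKM and 0.0605 above 100 FPKM, where all 76 rows were below their gene. Because every row had to reach 1 FPKM, rows with a low ratio on a low gene could not enter, which alone lifts the ratio there. By the same floor, the 242 rows on 125 genes under 1 FPKM had to exceed their gene in the mean, and 236 did in all 4 libraries. Their median level was 2.98 FPKM and their median ratio 22.3. The floor does not set the size of that ratio, and its cause was not tested.

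**Figure D2:**
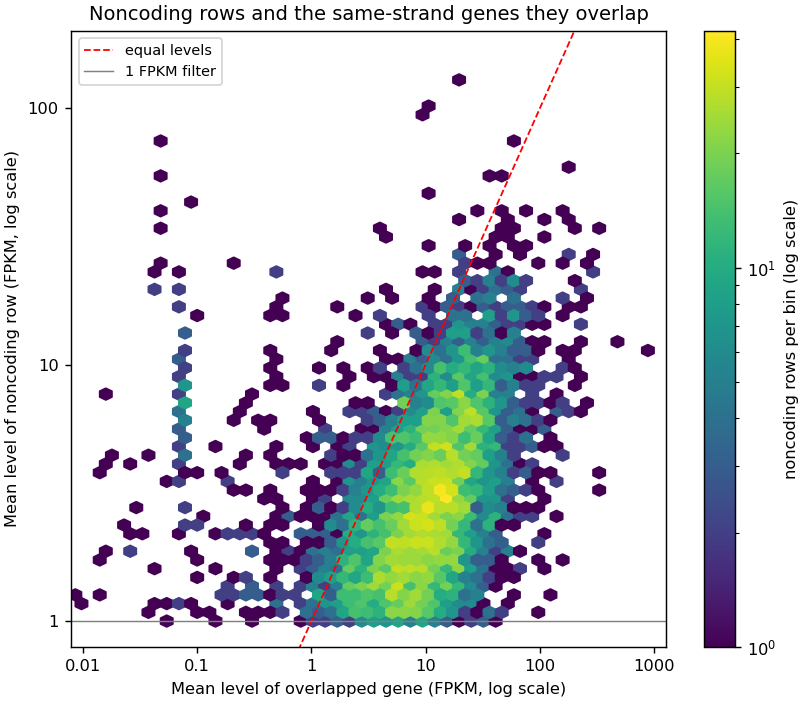
Mean over 4 libraries of each noncoding row (vertical, FPKM, log scale) against the mean of the gene it overlaps (horizontal, FPKM, log scale), with colour for the number of rows per bin, the dashed line at equal levels and the grey line at the 1 FPKM filter. Most of the 6144 rows lie below the dashed line; columns of points at the left are genes such as Lncpint whose own row is near 0, and 5 rows on genes below the axis are not drawn.

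The lowest ratios were on abundant genes, as the filter requires: a row of at least 1 FPKM can have so low a ratio only there. NONMMUG005023.2 in Atp5b, the beta subunit of mitochondrial ATP synthase, read 0.982 and 2.04 FPKM in KO and 1.54 and 0.513 FPKM in WT, while the gene was at 117 and 136 FPKM in KO and 117 and 135 FPKM in WT. The rows in Rps18 (a ribosomal protein), Spp1 (osteopontin), B2m (the light chain of MHC class I) and Srrm2 (a splicing protein) had ratios of 0.0102, 0.0109, 0.0115 and 0.0117. Each of these 5 rows lay far below its gene in every library.

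The highest rows included several that exceeded their gene. NONMMUG026825.2, 343 bp at chr3:69085105-69085447 inside Kpna4, which encodes an importin alpha of nuclear import, had 121 and 125 FPKM in KO and 142 and 128 FPKM in WT. Kpna4 itself was at 20.1 and 21.7 FPKM in KO and 25.5 and 21.4 FPKM in WT, so the row stood 5.82 times above it. NONMMUG001279.2, 272 bp inside the autophagy gene Atg16l1, read 119 and 84.7 FPKM in KO and 83.9 and 75.9 FPKM in WT, against 9.41 to 10.2 FPKM for the gene. NONMMUG006920.2 in Nf1, the gene of the Ras regulator neurofibromin, held the most fragments of any row counted as 1 block, 3082 and 3140 in KO and 3878 and 3339 in WT. Its level was 4.38 times that of Nf1. NONMMUG063819.1 in Btbd9 stood 3.88 times above its gene.

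One of these rows was unstable between replicates. NONMMUG016749.2, 575 bp at chr16:57391107-57391681 inside Filip1l, read 268 and 64 FPKM in KO and 52.2 and 24.1 FPKM in WT. Both KO values lay above both WT values, but the KO replicates differed more from each other than KO replicate 2 did from WT. The log2 change was 1.85 (SE 0.67, limma adjusted p = 0.885), and Filip1l itself stayed between 9.7 and 11.4 FPKM. The other rows among the 8 highest were in Rbpj, the DNA-binding factor of Notch signalling (59.4 and 75.7 FPKM in KO, 79 and 73.5 in WT), Srgn, the granule proteoglycan serglycin (66.2 and 59 FPKM in KO, 66 and 51.9 in WT), Cmip (54.6 and 53.9 FPKM in KO, 54.6 and 51.2 in WT) and B230303A05Rik.

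Of the 125 genes under 1 FPKM, RefSeq lists 64 as protein coding and 27 as lncRNA, and 24 had no match. B230303A05Rik was at 0.0448 and 0.0292 FPKM in KO and 0.0139 and 0.0833 FPKM in WT. Inside it, NONMMUG056626.1 had 79.3 and 84.8 FPKM in KO and 82.2 and 52.9 FPKM in WT, and NONMMUG056625.1 had 57.4 and 54.3 FPKM in KO and 60.2 and 41.5 FPKM in WT. In both rows WT replicate 2 was the lowest library. Dleu2, the noncoding host of the miR-15a and miR-16-1 cluster, was at 0.525 and 0.404 FPKM in KO and 0.338 and 0.544 FPKM in WT. The row with nearly its ends, NONMMUG013142.3, read 5.54 and 6.4 FPKM in KO and 6.06 and 5.98 FPKM in WT, with a log2 change of -0.01 (SE 0.13, limma adjusted p = 1). The table thus lists the same locus at levels 13.2 times apart under its NONCODE and Ensembl entries.

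Lncpint, a p53-induced long noncoding RNA, carried the most rows. Its Ensembl row was at 0.0765 and 0.0747 FPKM in KO and 0.0569 and 0.0923 FPKM in WT, whereas its 58 noncoding rows ran from 2.36 to 23.1 FPKM with a median of 7.05 FPKM. Their sum was 427 and 488 FPKM in KO and 493 and 470 FPKM in WT, so the genotypes overlapped. Of the 58 rows, 54 were counted as 1 block, 40 had a lower KO mean and 18 a higher one. Zbtb20, a zinc finger repressor, carried 37 rows of 1.14 to 6.69 FPKM around a gene level of 2.18 FPKM. The forkhead gene Foxp1 carried 24 rows and the cyclic AMP phosphodiesterase gene Pde4d another 24. Chd1, a chromatin remodeller, carried 35 rows, but its span in the table is 1689932 bp against 20568 bp in RefSeq, and 34 of the 35 rows lay outside the RefSeq span.

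**Figure D3:**
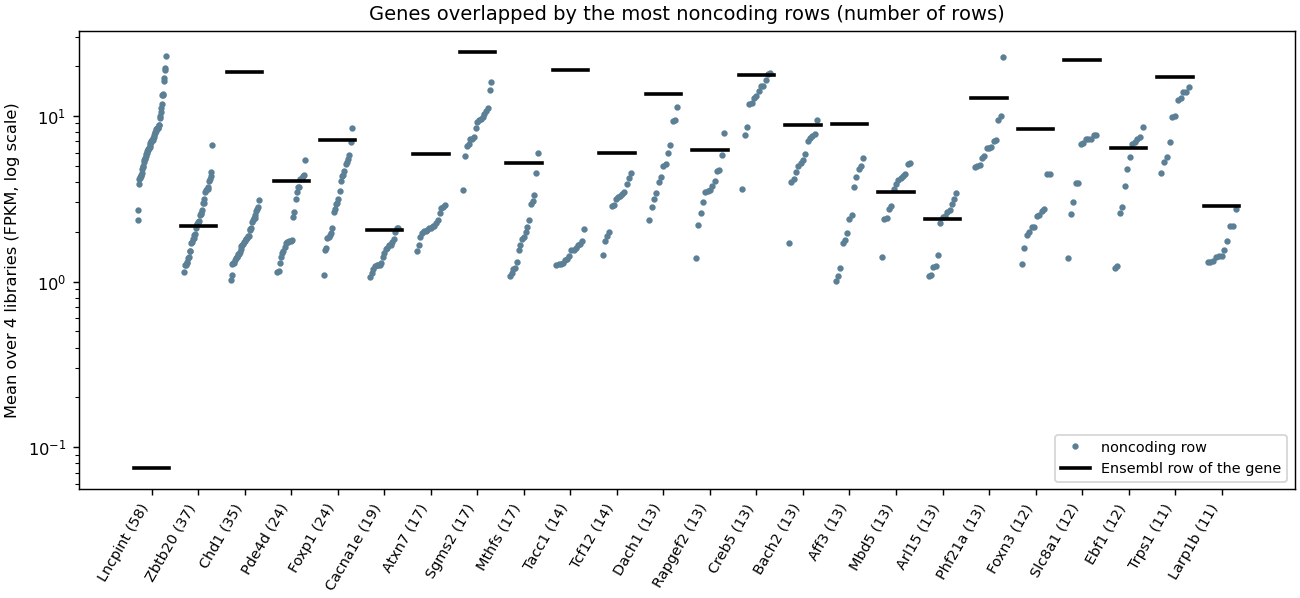
Mean level over 4 libraries (FPKM, log scale) of every noncoding row on the 24 genes that carry the most rows; points are rows in order of level, black bars the Ensembl row of the gene, and numbers in parentheses the rows per gene. All 58 Lncpint rows lie above their gene at 0.0751 FPKM, while all 35 Chd1 rows lie below their gene at 18.4 FPKM.

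The KO was then compared with WT, row by row. None of the 6144 rows passed limma's test at an adjusted p of 0.05, and the smallest adjusted p was 0.255; over all 24535 rows tested 3 passed, a background of 0.0122%. At an unadjusted p under 0.05 there were 79 higher and 159 lower rows, 3.87% in all, where all rows tested gave 5.36% (2.5% higher and 2.85% lower). Libraries of the genotypes did not overlap in 2088 rows, 683 higher and 1405 lower in KO, or 34.0%, against 30.9% of all rows tested (13.2% higher and 17.7% lower). The shares of called rows were thus at or under the background, and the pooled share without overlap was close to it. By direction, the share of lower rows without overlap (1405 of 6144) was above that of all rows tested (4343 of 24535). The share of higher rows (683 of 6144) was below that of all rows tested (3246 of 24535). Other noncoding rows leaned the same way, so the lean was not particular to these rows. Of 3242 rows overlapping genes on the opposite strand only, 656 were lower and 417 higher without overlap. Of 2295 that overlap no gene row, 480 were lower and 278 higher.

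The changes were small and leaned to lower values in KO. Means were lower in KO for 3731 rows and higher for 2413, with a median log2 change of -0.04 on the log2(FPKM + 1) scale, against -0.01 over all rows tested. The median was -0.04 over all 11971 noncoding rows tested and -0.02 over the 2950 overlapped genes tested. Left without KO replicate 1, the library in which the members had their smallest share of FPKM, the members' median was -0.0084 and 3177 rows were lower. Without KO replicate 2 the median was -0.0793. An exact two-sided permutation test with 2 libraries against 2 cannot give a p below 0.333, so none is given for this median.

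Of the rows lower in KO without overlap, the 8 with the smallest p were in genes of varied function. NONMMUG089162.1, 208 bp at chr12:33284009-33284216 inside Atxn7l1, read 5.15 and 5.83 FPKM in KO and 12.1 and 12.3 FPKM in WT, from 19 and 22 fragments in KO and 48 and 49 in WT. Both KO libraries were below both WT libraries, while Atxn7l1 stayed between 11.8 and 12.6 FPKM. The log2 change of the row was -1.03 (SE 0.12, limma adjusted p = 0.255). NONMMUG032128.2 in Babam2, a subunit of BRCA1 and BRISC deubiquitinating complexes, had 1.68 and 1.64 FPKM in KO and 4.34 and 4.51 FPKM in WT. It rested on 9 fragments in each KO library and 25 and 26 in WT, and its log2 change was -1.03 (SE 0.14, limma adjusted p = 0.312). NONMMUG073538.1 in Macf1, which links microtubules to actin, was at 0.697 and 0.85 FPKM in KO and 2.59 and 2.75 FPKM in WT, whereas Macf1 was at 29.3 and 32.8 FPKM in KO and 28.1 and 31.5 FPKM in WT.

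The other 5 of these rows had the same layout of libraries. NONMMUG052902.1 in Ugp2, which makes UDP-glucose, stood at 6.21 and 6.8 FPKM in KO and 11.7 and 11.5 FPKM in WT. NONMMUG071140.1 in Rapgef2, an activator of Rap GTPases, stood at 4.16 and 4.55 FPKM in KO and 7.21 and 7.2 FPKM in WT, from 59 and 66 fragments in KO and 110 in each WT library. NONMMUG077220.1 in Etv6, an ETS family repressor, was the most abundant, with 18.9 and 21.1 FPKM in KO and 28.6 and 31.3 FPKM in WT. The row in Abhd12, a lysophospholipid lipase, and the row in the vitamin C transporter gene Slc23a2 were the others. Adjusted p for these 5 ran from 0.433 to 0.567.

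Among rows higher in KO without overlap, 3 of the 8 with the smallest p lay in genes whose own libraries were also higher in KO without overlap. NONMMUG016391.2 in Slc15a2, a peptide transporter gene, read 2.93 and 3.38 FPKM in KO and 1.14 and 0.643 FPKM in WT, and the gene read 3.47 and 2.81 FPKM in KO and 1.4 and 0.712 FPKM in WT. Both KO libraries exceeded both WT libraries in row and gene, with log2 changes of 1.14 (SE 0.19, limma adjusted p = 0.445) and 1.03 (limma adjusted p = 0.537). NONMMUG035278.2 in Gimap3, a GTPase of lymphocytes, read 2.59 and 2.13 FPKM in KO and was listed at 0 and 0.676 FPKM in WT, while Gimap3 read 6.31 and 6.82 FPKM in KO and 1.89 and 4.43 FPKM in WT. These values did not overlap either, at an adjusted p of 0.537 for the row and 0.818 for the gene by limma. NONMMUG007809.2 in Tanc2, a scaffold protein gene, read 1.49 and 1.68 FPKM in KO and 0.638 and 0.531 FPKM in WT. Tanc2 itself differed less, with 0.989 and 1.2 FPKM in KO and 0.976 and 0.915 FPKM in WT (limma adjusted p = 0.608 for the row and 1 for the gene).

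In the other 5 the gene did not separate as the row did. NONMMUG010280.2 in Ero1lb, an oxidase of disulfide formation, read 7.71 and 7.52 FPKM in KO and 4.16 and 4.39 FPKM in WT, from 31 fragments in each KO library and 18 and 19 in WT, while the gene overlapped between genotypes at 14.8 to 17.3 FPKM. NONMMUG048110.1 in Phf3, a regulator of RNA polymerase II, had 16 and 17.2 FPKM in KO and 11.1 and 11.9 FPKM in WT. Both had KO above WT in every library, with log2 changes of 0.71 and 0.49 and limma adjusted p of 0.459 and 0.608. The remaining rows, in Aff3, Cyp3a13 and AC124426.1, and the Tanc2 row described above rested on 2 to 27 fragments per library. For example, NONMMUG000449.2 in Aff3 had 9 and 7 fragments in KO and 3 in each WT library.

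**Figure D4:**
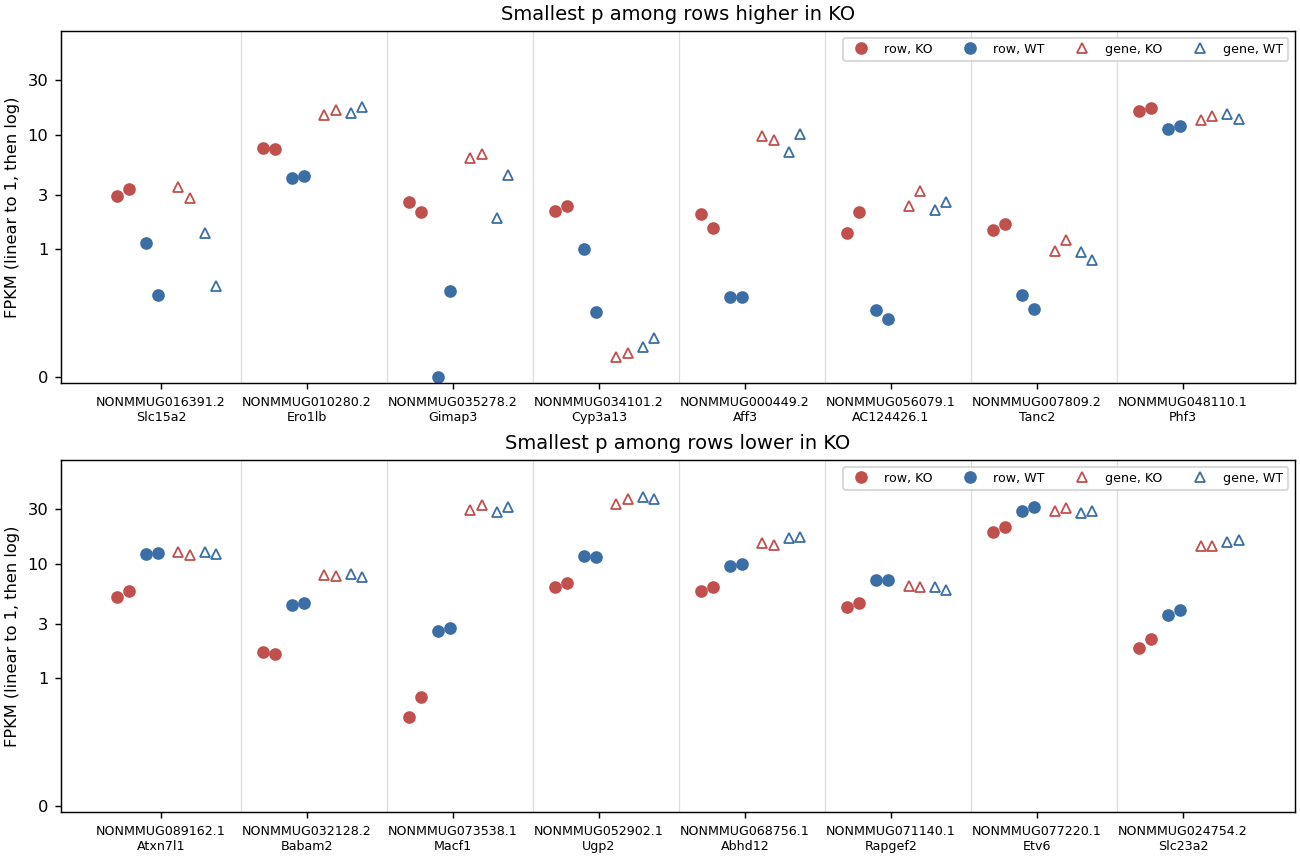
Level in each library (FPKM, linear to 1 and logarithmic above) of the 8 noncoding rows per direction with the smallest limma p among rows whose genotypes do not overlap; filled circles are the row, open triangles the overlapped gene, red KO and blue WT. In Atxn7l1 the row reads 5.15 and 5.83 FPKM in KO and 12.1 and 12.3 FPKM in WT while the gene's 4 triangles lie together; none of the 16 rows passed the adjusted threshold.

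Each row was next set against its own gene, by testing the per-library log2 ratio of row to gene. Of 5902 same-strand pairs 1 passed, against 1 of all 9275 pairs on either strand, a background of 0.0108%. At an unadjusted p under 0.05 the row gained on its gene in 91 pairs and lost in 114, 3.47% of the pairs, where all pairs gave 4.83% (2.03% gained and 2.8% lost). The share among same-strand pairs was thus under that of all pairs.

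In the pair that passed, the gene differed and the row did not. NONMMUG089601.1 spans 8032 bp at chr13:21812100-21820131. It overlaps only the end of Hist1h4m (chr13:21811746-21812147), a replication-dependent histone H4 gene of 402 bp, and nearly all of the row lies outside that gene. The row read 5.32 and 4.36 FPKM in KO and 5 and 5.15 FPKM in WT. Hist1h4m read 12.8 and 8.63 FPKM in KO and 137 and 157 FPKM in WT, so KO and WT overlapped in the row and lay far apart in the gene. The pair's log2 change was 3.62 (SE 0.16, limma adjusted p = 0.00229). Its log2 change was 3.76 without KO replicate 1, 3.48 without KO replicate 2 and 3.62 with no filter on low values, but the limma adjusted p was then 0.0700, 0.103 and 0.0798. Over these and the other alternatives in which the pair was tested, the adjusted p ran from 0.00172 to 0.103. The row's mean of 4.96 FPKM put it outside a filter of 5 FPKM, and a rule that at least 50% of the row lie inside the gene removed it too. Histone genes have near-identical copies, so the gene's own values are uncertain.

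Other pairs with the smallest p did not pass. The row in Luzp1 had 2.61 and 3.68 FPKM in KO and 1.89 and 1.62 FPKM in WT, and the gene 8.91 and 11.4 FPKM in KO and 12.6 and 11.9 FPKM in WT (pair log2 change 0.84, limma adjusted p = 0.802). The row in Smarcc1, a core subunit of the BAF chromatin remodeller, had 1.85 and 2.71 FPKM in KO and 4.3 FPKM in each WT library, with Smarcc1 at 10.3 and 12.9 FPKM in KO and 10 and 12.2 FPKM in WT (pair log2 change -0.76, limma adjusted p = 0.935). In both, the row's libraries separated by genotype. The rows in Whrn, Rmdn1 and Dtd1 completed the 5 pairs per direction, beside those already named.

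Row and gene moved together when read from the same libraries, and barely when read from separate ones. Across the 5902 same-strand pairs, the KO minus WT log2 changes of row and gene had Pearson's r = 0.306 and Spearman's rho = 0.305, and 61.6% had the same sign. Pairs share 4 libraries and may share reads, and rows on 1 gene share that gene. Rows opposite to their gene, 3084 pairs, gave r = 0.265 and rho = 0.246. With KO1 minus WT1 for the row and KO2 minus WT2 for the gene, r was 0.0834, and with the replicates exchanged 0.0476. The difference between KO replicates gave r = 0.260 and that between WT replicates 0.311. Row and gene thus also moved together between libraries of 1 genotype.

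**Figure D5:**
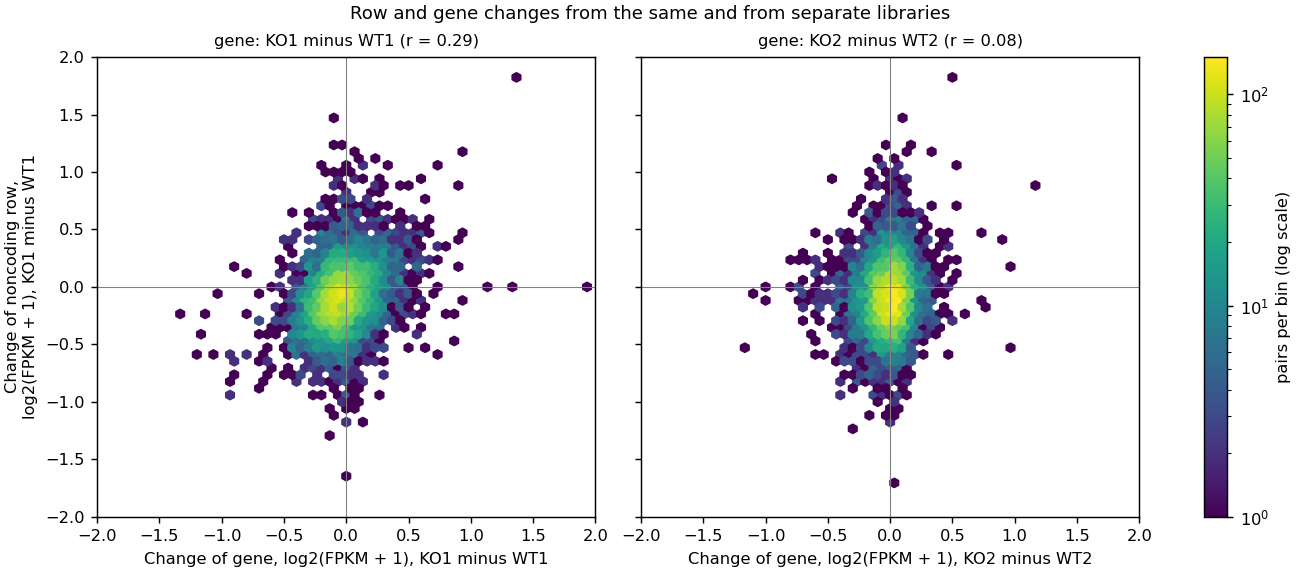
Change of the noncoding row, KO replicate 1 minus WT replicate 1, against the change of its gene in the same libraries (left) and in KO replicate 2 minus WT replicate 2 (right), both in log2(FPKM + 1), with colour for the number of the 5902 same-strand pairs per bin. The cloud is tilted at left (r = 0.29) and nearly upright at right (r = 0.08); 3 pairs lie beyond the axes in each panel.

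Gene lists placed the rows by function. Chromatin regulators had 127 rows on 32 genes, of which 47 had a higher and 80 a lower KO mean, and none passed the test. Splicing factors and nuclear RNA-binding proteins had 58 rows on 31 genes (19 higher, 39 lower), cytoskeleton and adhesion genes 69 rows on 23 genes (27 higher, 42 lower) and lysosome and endocytosis genes 17 rows on 13 genes (5 higher, 12 lower). Their medians of log2 change were -0.06 for chromatin, -0.06 for splicing, -0.04 for cytoskeleton and -0.13 for lysosome. The median was -0.04 over all 6144 members, of which 60.7% had a lower KO mean, and -0.01 over all rows tested. With each library left out, these medians ran from -0.09 to -0.03 for chromatin, -0.13 to 0.03 for splicing, -0.11 to -0.02 for cytoskeleton and -0.18 to -0.09 for lysosome. Without KO replicate 1, 25 of the 58 splicing rows were lower. Examples were NONMMUG069577.1 in the splicing regulator Mbnl1, with 40.2 and 56.1 FPKM in KO and 52 and 61 FPKM in WT, and NONMMUG007613.2 in Atp6v0a1, a subunit of the vacuolar proton pump, with 32.1 and 32.9 FPKM in KO and 38.3 and 38.6 FPKM in WT. The genotypes overlapped in Mbnl1 and not in Atp6v0a1, and neither row passed (limma adjusted p = 1 and 0.971).

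Lists of immune cell types met few rows. Genes of the macrophage identity list carried 3 rows, in Ptprc (CD45), Adgre1 (F4/80) and the fibronectin gene Fn1. The KO mean was lower in 2 of these rows and higher in 1. Without KO replicate 1 it was lower in 1. NONMMUG001909.2 in Ptprc read 17.7 and 18.6 FPKM in KO and 18.2 and 17.5 FPKM in WT, without separation. NONMMUG000965.2 in Fn1 read 2.34 and 2.58 FPKM in KO and 4.03 and 3.14 FPKM in WT, and Fn1 31.8 and 39.2 FPKM in KO and 67.8 and 60.4 FPKM in WT. Both were lower in both KO libraries, at adjusted p of 0.917 and 0.445 by limma. Summed over the list, the macrophage genes gave 3256 and 3223 FPKM in KO and 3683 and 3674 FPKM in WT. Such a sum follows the most abundant genes. The median log2 change of the 30 list genes tested was -0.03, against -0.01 over all rows tested. The part of the difference in sums in the rows was not tested. Innate sensing and NF-κB genes had 8 rows on 6 genes, T and NK cell genes 2 rows, mast cell, basophil and eosinophil genes 2 rows, neutrophil genes 1 row (Fcnb), named noncoding genes 7 rows (all Dleu2), and erythroid and megakaryocyte genes none.

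The B cell list met 25 rows, 13 in Bach2 and 12 in Ebf1, genes of B cell transcription factors, and all 25 had a lower mean in KO. None passed the adjusted threshold, 2 had an unadjusted p under 0.05 (5.36% of all rows tested did), and genotypes did not overlap in 11, all lower in KO (17.7% of all rows tested were lower without overlap). The rows' median log2 change was -0.33. The median level of the Bach2 rows was 5.02 and 4.81 FPKM in KO and 4.91 and 7.94 FPKM in WT, and that of the Ebf1 rows 4.76 and 4.13 FPKM in KO and 4.46 and 7.37 FPKM in WT. WT replicate 2 was the high library in both, and WT replicate 1 lay near the KO libraries. Without WT replicate 2, 17 of the 25 rows were lower and the median was -0.05. The genes followed the same order: Bach2 read 8.27 and 6.97 FPKM in KO and 7.87 and 12.1 FPKM in WT, and Ebf1 6.29 and 5.38 FPKM in KO and 5.4 and 8.64 FPKM in WT. The summed B cell list was higher in KO, at 817 and 914 FPKM against 474 and 710 FPKM in WT, but a sum follows the most abundant genes. The median log2 change of the 22 list genes tested was 0.12, and B cell genes differed in direction. Rag1 read 4.74 and 2.88 FPKM in KO and 6.63 and 9.79 FPKM in WT. Vpreb1 read 0.81 and 1.01 FPKM in KO and 1.78 and 2.26 FPKM in WT. Rag1 and Vpreb1 thus went against the list's median, which was higher in KO. Cd79a read 55.1 and 44.2 FPKM in KO and 36.9 and 53.3 FPKM in WT. Pax5 read 6.07 and 4.56 FPKM in KO and 4 and 6.17 FPKM in WT. Cd79a and Pax5 overlapped between genotypes, with a higher mean in KO. The part of B cell number in these rows was not tested. In bulk RNA, fewer cells of a type and less RNA per cell cannot be told apart.

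Other genes with many rows also gave rows that leaned one way. All 14 rows in Tcf12, all 11 in Trps1 and all 10 in Gm21992 had lower KO means, with medians of -0.15, -0.17 and -0.16, and 17 of 19 rows in the calcium channel gene Cacna1e were lower. Without KO replicate 1, 7 of 14 Tcf12 rows and 4 of 11 Trps1 rows were lower, and the Gm21992 median was -0.05, while without KO replicate 2 it was -0.30. With each library left out in turn, 13 to 18 of the 19 Cacna1e rows were lower, with medians from -0.33 to -0.15. In Creb5 12 of 13 rows were lower, and 10 to 13 were with each library left out, with medians from -0.23 to -0.10. In Foxn3 10 of 12 rows and in Pitpnc1 10 of 11 had higher KO means, but without WT replicate 2 the KO mean was lower in 5 of the 11 Pitpnc1 rows. The Foxn3 median of 0.16 was 0.04 without WT replicate 1 and 0.05 without KO replicate 1. These genes were picked for their direction after the values were seen, and rows of 1 gene are not independent of each other.

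No row over a microRNA gene passed the test. NONMMUG050479.1, over Mir8104 at the start of Ppm1h, was the highest, with 8.6 and 7.96 FPKM in KO and 11.1 and 7.01 FPKM in WT. NONMMUG030929.2, over Mir7227 in the chromatin gene Arid1a, read 6.2 and 7.92 FPKM in KO and 5.93 and 6.92 FPKM in WT. NONMMUG014085.2, over Mir1898 in Zfr, read 5.22 and 5.77 FPKM in KO and 6.46 and 5.82 FPKM in WT. The first of these overlapped between genotypes and so did the second, whereas in Zfr both KO values were below both WT values (limma adjusted p = 1). NONMMUG010909.2, a row of 363582 bp that spans Zfp169 and the let-7a-1, let-7d and let-7f-1 hairpins, read 3.37 and 3.9 FPKM in KO and 2.98 and 3.49 FPKM in WT. NONMMUG088498.1, over let-7i, read 2.04 and 2.57 FPKM in KO and 2.12 and 2.34 FPKM in WT, and the 2 let-7 rows overlapped between genotypes. Further rows of the rule lay over Mir7115 in Arrb2, Mir1936 in Itpk1 and Mir7655 in Mllt10. The rows over miR-29b and miR-29c (1.75 and 1.67 FPKM in KO, 2.16 and 2.03 in WT), miR-181 (2.09 and 2.52 in KO, 2.41 and 2.85 in WT), miR-22 (1.54 and 2.22 in KO, 2.38 and 1.43 in WT) and miR-423 (1.89 and 1.68 in KO, 1.63 and 2.11 in WT) were named after their values were seen.

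Of the rows that begin with a gene, the 6 shown above overlapped between genotypes. The Zfp36l1 row, in a gene whose protein speeds decay of AU-rich mRNAs, read 38 and 36.2 FPKM in KO and 46.6 and 35.2 FPKM in WT. The Cd274 (PD-L1) row read 19.4 and 20.3 FPKM in KO and 26.3 and 19.8 FPKM in WT, and the Anxa1 (annexin A1) row 18.5 and 17.8 FPKM in KO and 17.7 and 18.1 FPKM in WT. In all 3 the KO and WT values overlapped, WT replicate 1 being highest in Zfp36l1 and Cd274. The Myh9 row, in the gene of nonmuscle myosin heavy chain, read 24.9 and 16 FPKM in KO and 18.3 and 19.8 FPKM in WT, the Ifngr2 (interferon gamma receptor) row 17.7 and 15.2 in KO and 17.2 and 16.8 in WT, and the Cyb561a3 row 31.5 and 27.8 in KO and 27.9 and 30.3 in WT. Over all 206 rows the median log2 change was -0.0045, 3 had an unadjusted p under 0.05 (5.36% of all rows tested did), and the median ratio to the gene was 0.261 over the 193 with a gene at 1 FPKM or more. The 3 rows were the Gimap3 row described above, NONMMUG078504.1 in E030018B13Rik (8.76 and 7.62 FPKM in KO, 11.6 and 10.9 in WT) and NONMMUG092442.1 in B230118H07Rik (2.03 and 1.23 FPKM in KO, 2.66 and 2.89 in WT). The last starts 10 bp before the RefSeq start of Rag1, and its span (chr2:101647927-101649542) lies mostly over Rag1 (chr2:101638282-101649501). Rag1 read 4.74 and 2.88 FPKM in KO and 6.63 and 9.79 FPKM in WT. Because B230118H07Rik is its partner by overlap, this row is not among the 25 rows of the B cell list. The genotypes did not overlap in any of the 3 rows, and limma adjusted p ran from 0.537 to 0.878.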

How the data were processed

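RNA of 4 libraries (KO and WT, 2 each) is held in 1 table of FPKM values, which the authors computed and deposited. The submitters' processing notes name Bowtie 0.12.2 and mm9. How reads were counted, and how strand and multiple matches were handled, is not stated in the sources used here. Of 18848 rows matched to RefSeq GRCm38.p6 by Entrez number, 99.9% had the same chromosome and 87.3% a start within 1 kb, so coordinates are read as GRCm38.

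The members and lists were chosen with earlier results of these data known. A row's partner was the gene with the largest overlap in bp. The test covered all 24535 rows whose mean reached 1 FPKM and used limma 3.58.1 (R 4.3.3, mean-variance trend) with log2(FPKM + 1), KO minus WT, with Benjamini-Hochberg adjustment read at 0.05. This scale understates changes of low rows. Row against gene was tested likewise on the difference of log2 values over 9275 pairs. The code was tested on simulated data. Exact fragments were read only for rows counted as 1 block, so no count test was run, and precision for others is unknown. Replicate numbers did not pair the libraries. Alternatives were a pseudocount of 0.1, filters, scalings, the replicate block, each library left out, other limma settings and other overlap rules. Rows were named by rule: the 8 highest, the 8 smallest p per direction without overlap, 5 pairs per direction, 5 highest and 5 lowest ratios on genes of at least 5 FPKM, up to 3 per list, and up to 8 over microRNAs. Others were chosen after their values were seen.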

Additional observations from a re-analysis of the deposited data

How the results depend on the processing

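The count of rows called between KO and WT was 0 under every alternative run (pseudocount, filters, scalings, limma settings, replicate block, overlap rules), and from 0 to 0 with each library left out. At an unadjusted p under 0.05 it was 179 without KO replicate 1 and 291 without KO replicate 2, against 238. The count of row and gene pairs called, 1, was 0 with no filter, 0 with a filter of 5 FPKM and 0 with at least 50% of the row inside the gene, and from 0 to 1 with each library left out; the overlap rule and the filter of 5 FPKM drop the pair itself (row mean 4.96 FPKM), and for the rest the cause was not tested. The median change ran from -0.0793 to -0.0084 with each library left out. The median ratio was 0.279 in KO replicate 1 alone. The correlation of changes was 0.0834 and 0.0476 with no shared library. With the replicate block, 0 rows and 1 pair were called, 262 rows had an unadjusted p under 0.05, and the median change was -0.0441; deviations of same-numbered libraries correlated at 0.051, so the numbers were not taken as pairs. Of 295 recomputed values for 26 single rows and pairs, 292 kept their direction and side of the threshold, and the other 3 were of the Hist1h4m pair. Depth limits rows of few fragments: of the 5003 rows counted as 1 block, the lowest 10% had at most 28 to 32 fragments per library.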
